A study of Mus musculus with 5 samples.

Results

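Sphingosine 1-phosphate (S1P) is a signalling lipid made inside cells by phosphorylation of sphingosine and read outside cells by a family of G protein-coupled receptors. The 8 genes described here are the receptors S1pr1, S1pr2, S1pr3 and S1pr4, the sphingosine kinases Sphk1 and Sphk2 that make S1P, the lyase Sgpl1 that cleaves it irreversibly and the phosphatase Sgpp1 that returns it to sphingosine. They are 8 of the 21289 genes in the deposited count table and were taken from it by symbol. The set was put together because S1pr4 had clear levels with curcumol and not a single count without it, so the values of S1pr4 are given as a description without a test.

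The cells were cardiac CD45+CD64+ macrophages of wild-type male C57BL/6JGpt mice, taken 7 days after myocardial infarction for bulk RNA sequencing. CD45 is the common leukocyte antigen and CD64 is the high-affinity IgG receptor of monocytes and macrophages. The 3 curcumol samples came from infarcted mice given curcumol, a sesquiterpene of Curcuma rhizomes, at 30 mg/kg by mouth each day for 7 days. The 2 untreated samples came from infarcted mice without curcumol, and the labels name neither a vehicle nor an uninfarcted group, so every sample carries the infarct. The labels do not say whether each sample was 1 animal or a pool, so that p-values here reflect sample-to-sample spread, which may be technical.

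In leukocytes and vessels the S1P receptors couple to different G proteins. S1pr1 signals through Gi and guides the exit of lymphocytes from lymphoid tissue along the S1P gradient between tissue and blood, S1pr2 signals mainly through G12/13 and restrains migration, S1pr3 couples to several G proteins and is prominent in vessel wall cells, and S1pr4 is found mainly in blood and lymphoid cells. S1P is degraded in most tissues by the lyase and the phosphatases, which keeps tissue levels below those of blood.

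Total counts were 39768705 to 41117439 per curcumol library and 41663017 to 43315822 per untreated library. The curcumol libraries had counts for 17078 to 18501 genes and the untreated libraries for 12243 and 12915. Markers of the gate were present throughout: the 11 macrophage markers summed to between 37567 and 43212 normalised CPM with curcumol and to 44870 and 44933 without it, lower with curcumol without overlap. The largest part of that sum was Lyz2, and the markers went both ways. Without overlap 4 were higher with curcumol (Itgam, Mertk, C1qa and C1qb) and 4 lower (Fcgr1, Cd68, Lyz2 and Cd14). Over all tested genes these shares were 29.5% and 14.9%. Of the genes of the sorted antigens, Ptprc (CD45) averaged 399 ± 88.4 with curcumol and 291 ± 43.0 without it (SD, n = 3 and 2) and overlapped. Fcgr1 (CD64) averaged 293 ± 40.2 and 361 ± 16.4 and was lower with curcumol without overlap. Lyz2, the macrophage lysozyme, averaged 22119 ± 1847 with curcumol and 25525 ± 749 without it (SD, n = 3 and 2), and the complement gene C1qb 6816 ± 321 and 6041 ± 62.4. Normalised CPM are counts scaled to library size with edgeR's TMM factors. A level per kb divides this value by the length of the longest coding transcript in GENCODE M21, so that genes can be compared with each other.

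S1pr4 was detected in every curcumol library and in no untreated library. Its counts (NCBI gene 13611) were 340, 442 and 487 with curcumol and 0 and 0 without it. In normalised CPM this is 8.13, 10.04 and 11.4 with curcumol, against 0 and 0, where 3 counts in an untreated library would have been 0.0760 or 0.0767. The groups were far apart, and the mean with curcumol, 9.87 ± 1.66 normalised CPM (SD, n = 3), was at least 129-fold higher than a floor of 3 counts per untreated library, a bound that covers counting error only. In bulk RNA such a difference cannot be told apart between more cells that express the gene and more RNA per cell. The untreated libraries also had counts for fewer genes in all, 12243 and 12915 against 17078 to 18501 with curcumol. The part of this in the S1pr4 difference was not tested.

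The untreated libraries lacked many weakly expressed genes, so S1pr4 was set beside genes of its own level. Of 2049 other genes whose mean with curcumol lay within 1.5 times of that of S1pr4, 23 (1.12%) lacked counts in both untreated libraries, and 171 (8.35%) lacked them in one or both. Over the whole table, 2246 genes had counts in all curcumol libraries and in neither untreated one, and by its mean with curcumol S1pr4 ranked 9 among the genes absent from both untreated libraries. These counts describe where S1pr4 stands and carry no test, since the gene was chosen for its absence.

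The sequences before the annotated starts are shown for S1pr4 and for Sgpl1 and Sgpp1, the enzymes whose values lay higher with curcumol, because these upstream regions differ in base composition. Each line gives the 250 bases before the start in RefSeq on GRCm38.p6, 5′ to 3′ along the gene, with CpG dinucleotides in capitals. S1pr4 is at chr10:81500138-81500387, minus strand, Sgpl1 at chr10:61147685-61147934, minus strand and Sgpp1 at chr12:75735730-75735979, minus strand.
S1pr4: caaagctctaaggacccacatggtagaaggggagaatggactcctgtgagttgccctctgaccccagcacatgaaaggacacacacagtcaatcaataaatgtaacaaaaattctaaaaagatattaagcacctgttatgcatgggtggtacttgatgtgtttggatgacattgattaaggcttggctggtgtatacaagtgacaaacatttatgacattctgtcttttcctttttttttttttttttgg
Sgpl1: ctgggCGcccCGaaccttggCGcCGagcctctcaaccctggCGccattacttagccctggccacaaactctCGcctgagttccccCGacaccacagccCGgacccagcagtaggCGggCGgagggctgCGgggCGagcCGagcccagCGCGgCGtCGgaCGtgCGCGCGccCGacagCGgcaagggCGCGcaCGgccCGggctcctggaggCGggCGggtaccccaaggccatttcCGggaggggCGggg
Sgpp1: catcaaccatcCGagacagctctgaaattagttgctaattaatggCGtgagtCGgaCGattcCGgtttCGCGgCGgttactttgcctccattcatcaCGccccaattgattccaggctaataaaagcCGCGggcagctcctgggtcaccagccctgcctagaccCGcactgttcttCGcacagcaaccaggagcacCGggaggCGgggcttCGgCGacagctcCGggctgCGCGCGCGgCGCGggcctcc
The S1pr4 stretch held 0 CpG and 38.8% G or C, the Sgpl1 stretch 31 CpG and 74.8%, and the Sgpp1 stretch 24 CpG and 61.2%, where the median of 32851 such stretches was 6.0 CpG and 52.4%. The set of RefSeq promoters used here held an entry for 7 of the 8 genes, all but S1pr1.

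A few short motifs were looked up on both strands of these stretches. The GC box GGGCGG, present in 32.7% of all stretches, was found 3 times before Sgpl1 and had no match before S1pr4 or Sgpp1. The CCAAT box, in 33.8% of all stretches, was found 1 time before Sgpp1 and not in the other two. The interferon response element, in 2.98% of stretches, the NF-kB site, in 0.356%, the AP-1 site TGANTCA, in 6.75%, the PU.1 core GAGGAAG, in 10.6%, and the TATA box TATAAA, in 12.4%, had no match in any of these stretches. No match overlapped one of another motif, and these letters say nothing of whether a factor binds there. The first 20 transcribed bases of S1pr4 in RefSeq, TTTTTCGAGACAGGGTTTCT, come from a mouse B1-type repeat and also stand, on one strand or the other, in GENCODE M21 transcripts of 721 genes. The GENCODE M21 transcript of S1pr4 starts 5 bases downstream of the RefSeq start, so the stretch shown ends 5 bases before that start. How the authors' counting treated reads from such repeats is not given in the sources used here.

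**Figure D1:**
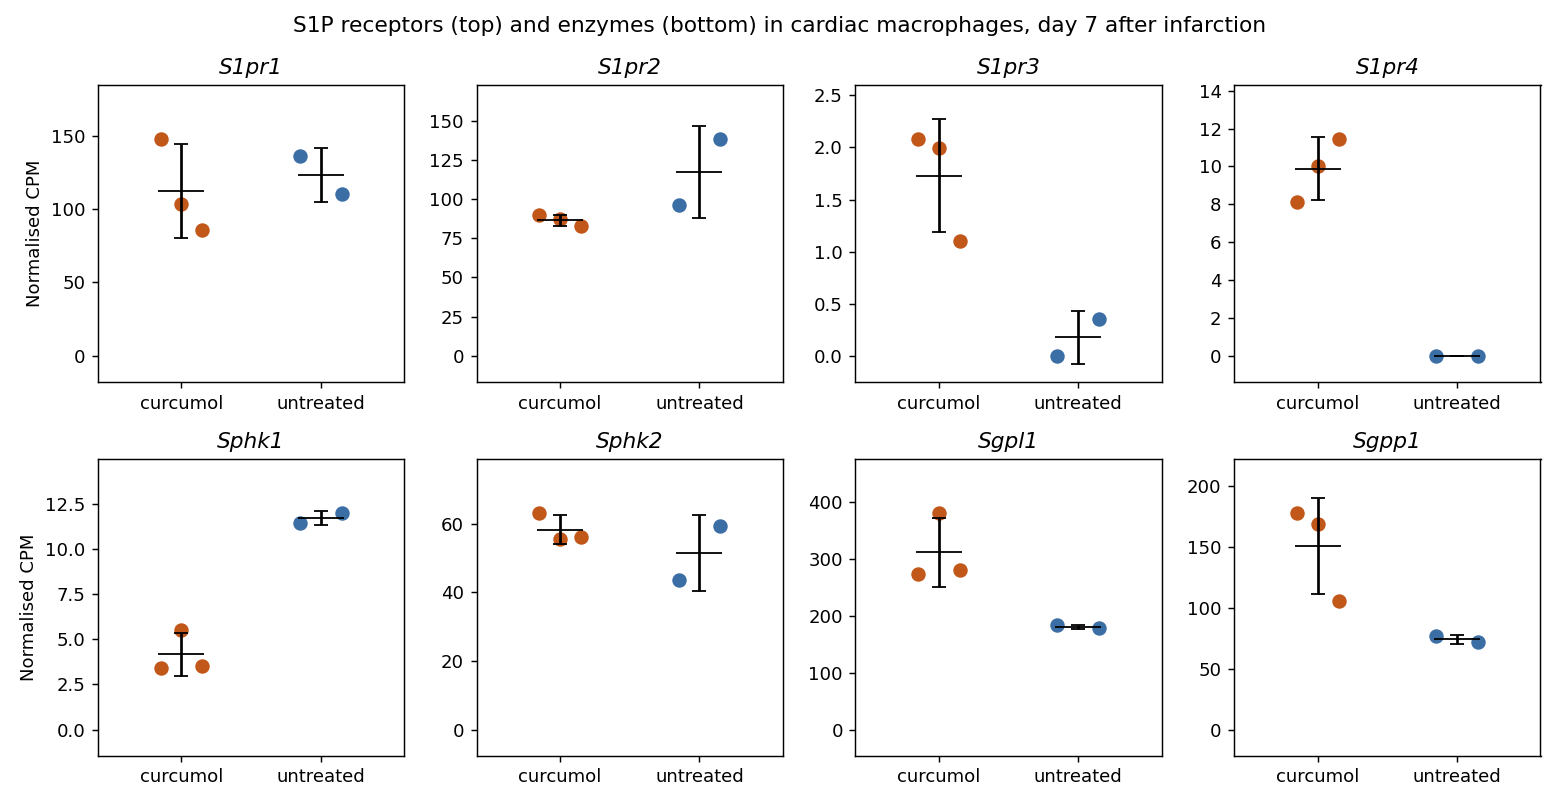
Normalised CPM of the 8 genes in each library, with 3 curcumol libraries at the left and 2 untreated libraries at the right of each panel. Points are libraries, and black bars are the mean and SD. S1pr4 lay between 8.13 and 11.4 with curcumol and at 0 without it, and Sphk1 lay the other way, at 3.39 to 5.54 with curcumol against 11.5 and 11.998.

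The other 7 genes were tested with edgeR's quasi-likelihood test in a fit over all genes, with Benjamini-Hochberg adjustment over 14508 genes. None of the 7 passed an adjusted p of 0.05, where 0.207% of all tested genes passed (0.0689% higher and 0.138% lower with curcumol). An unadjusted p under 0.05 was reached by 2 higher and 1 lower, where 24.6% of all tested genes reached it (18.1% higher and 6.51% lower). Curcumol and untreated libraries were fully separated for Sgpl1 and Sgpp1, higher with curcumol, and for S1pr2 and Sphk1, lower with curcumol. They were also separated, on low counts, for S1pr3, higher with curcumol. Full separation was seen for 44.4% of all tested genes. DESeq2 called 3 of the 7, where it called 12.9% of 20536 genes. All 8 genes passed the filter on low counts, S1pr3 and S1pr4 only through their curcumol libraries. S1pr3 is counted among the 7 tested genes, but no result is drawn from its fitted values. The intervals given below are for single genes and are not adjusted for the number of genes.

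Among the receptors, S1pr1 and S1pr2 held most of the signal in both groups. S1pr1, the Gi-coupled receptor of lymphocyte exit and vessel integrity (NCBI gene 13609), stood at 148, 103 and 85.6 normalised CPM with curcumol, against 136 and 110 in the untreated libraries. The curcumol libraries spanned the untreated ones, and the log2 fold change of -0.13 ± 0.26 (SE; 95% interval -0.77 to 0.50) did not pass (adjusted p = 0.820). Its sign turned with total counts as the scaling (0.05), with the replicate number as a block (0.01), and without untreated replicate 1 (0.03) or curcumol replicate 3 (0.03).

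S1pr2, the G12/13-coupled receptor (NCBI gene 14739), stood at 89.6, 87.1 and 82.6 normalised CPM with curcumol, against 96.4 and 138 in the untreated libraries. The 3 curcumol values lay close together and below both untreated values, of which untreated replicate 2 was the high one. The log2 fold change was -0.44 ± 0.20 (95% interval -0.92 to 0.04, adjusted p = 0.232). It was -0.67 without untreated replicate 1 and -0.14 without untreated replicate 2.

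S1pr3, a receptor best known from vessel wall cells (NCBI gene 13610), was near the detection limit. It had 87, 88 and 47 counts with curcumol, 2.08, 1.999 and 1.10 normalised CPM, against 0 and 14 counts, 0 and 0.358 normalised CPM, in the untreated libraries. The groups did not overlap, but the untreated level rests on 14 counts in untreated replicate 2. S1pr3 passed the filter on low counts only through its curcumol libraries, so its difference is given without a test. Of 1197 other genes within 1.5 times of its mean with curcumol, 58.1% had no count in one or both untreated libraries.

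Per kb of transcript the 4 receptors summed to 66.3, 52.2 and 46.0 CPM with curcumol, against 59.8 and 57.8 in the untreated libraries. The curcumol sums lay on both sides of the untreated sums. S1pr1 made up 73.0%, 65.0% and 61.0% of that sum with curcumol, against 74.8% and 62.5%. The S1pr2 share was 21.1%, 26.1% and 28.0% with curcumol, against 25.2% and 37.4%. S1pr4 made up 5.13%, 8.06% and 10.4% with curcumol and 0% in both untreated libraries, and the S1pr3 share stayed under 1% in each library. Curcumol replicate 1 had the highest S1pr1 level and the lowest S1pr4 level of the curcumol libraries, and curcumol replicate 3 had the reverse.

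**Figure D2:**
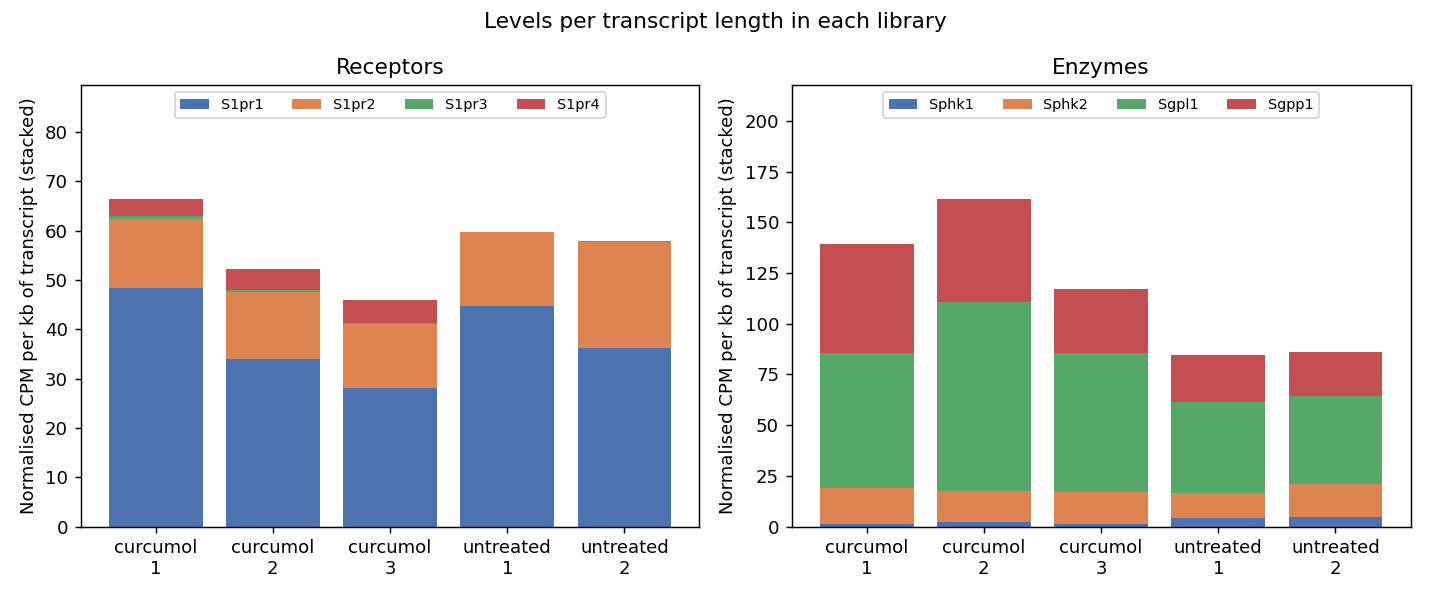
Normalised CPM per kb of transcript, stacked by gene, for the receptors (left) and the enzymes (right), with curcumol replicates 1 to 3 left of untreated replicates 1 and 2. S1pr1 is the largest receptor segment in each library, S1pr4 is seen only in the curcumol bars, and Sgpl1 and Sgpp1 make the curcumol enzyme bars taller.

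The kinases differed from each other. Sphk1, a growth factor- and cytokine-inducible kinase of the cytosol and plasma membrane (NCBI gene 20698), had 142, 244 and 151 counts with curcumol, against 452 and 469 in the untreated libraries. In normalised CPM these were 3.39, 5.54 and 3.55 with curcumol and 11.5 and 11.998 without it. Both untreated values were about equal and above all curcumol values, of which curcumol replicate 2 was the high one. The log2 fold change of -1.49 ± 0.49 (95% interval -2.69 to -0.30) did not pass (adjusted p = 0.123). DESeq2 called it at -1.50 with an adjusted p of 0.00472, and the edgeR fits without untreated replicate 1 or 2 gave adjusted p of 0.0354 and 0.0358 and leave a single untreated library, whose spread is then assumed to be that of the curcumol group.

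Sphk2, the kinase found in the nucleus and mitochondria (NCBI gene 56632), stood at 63.2, 55.6 and 56.0 normalised CPM with curcumol, against 43.7 and 59.2 in the untreated libraries. The groups overlapped through untreated replicate 2 (log2 fold change 0.18 ± 0.21, 95% interval -0.32 to 0.67, adjusted p = 0.669), and without untreated replicate 1 the sign turned (-0.02). Per kb, Sphk1 made up 6.69%, 11.7% and 7.79% of the summed kinase level with curcumol, against 25.9% and 21.3% in the untreated libraries. The sum itself was 19.1, 17.7 and 17.1 CPM per kb with curcumol, against 16.6 and 21.2. Sphk2 was thus the more abundant kinase transcript in each library, and the kinase sum overlapped between the groups while the Sphk1 share did not.

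The degrading enzymes had higher values with curcumol. Sgpl1, the lyase of the endoplasmic reticulum that removes S1P from the sphingolipid pool (NCBI gene 20397), stood at 273, 381 and 280 normalised CPM with curcumol, against 183 and 178 in the untreated libraries. All curcumol libraries lay above both untreated ones, and curcumol replicate 2 was the highest. The log2 fold change was 0.79 ± 0.20 (95% interval 0.31 to 1.27), a 1.73-fold difference that did not pass (adjusted p = 0.0765).

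Sgpp1, the S1P phosphatase of the endoplasmic reticulum (NCBI gene 81535), stood at 178, 169 and 105 normalised CPM with curcumol, against 76.9 and 71.7 in the untreated libraries. The groups did not overlap, with curcumol replicate 3 nearest to the untreated values. The log2 fold change was 1.02 ± 0.26 (95% interval 0.39 to 1.65), a 2.03-fold difference that did not pass (adjusted p = 0.0768). DESeq2 called both genes, Sgpl1 at 0.78 with an adjusted p of 0.00709 and Sgpp1 at 1.01 with 0.00621.

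Set against each other per kb, Sgpl1 and Sgpp1 together exceeded the summed kinases 6.29-, 8.09- and 5.84-fold in the curcumol libraries, against 4.07- and 3.06-fold in the untreated libraries. The ratio was higher in each curcumol library than in either untreated one. It is built from genes whose differences are given above and is no separate evidence. Within the pair, Sgpl1 exceeded Sgpp1 1.24-, 1.83- and 2.15-fold with curcumol, against 1.93- and 2.01-fold without it, which overlap.

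By level per kb the order with curcumol was Sgpl1 (75.9 ± 14.7, SD, n = 3), Sgpp1 (45.3 ± 11.9), S1pr1 (36.8 ± 10.49), Sphk2 (16.4 ± 1.20), S1pr2 (13.5 ± 0.559), S1pr4 (4.14 ± 0.697), Sphk1 (1.56 ± 0.451) and S1pr3 (0.387 ± 0.121). The libraries of neighbours overlapped for Sgpp1 and S1pr1 only. In the untreated libraries the order was Sgpl1 (44.0 ± 0.850, SD, n = 2), S1pr1 (40.4 ± 6.08), Sgpp1 (22.4 ± 1.11), S1pr2 (18.3 ± 4.62), Sphk2 (14.5 ± 3.10), Sphk1 (4.41 ± 0.144), S1pr3 at 0 and 0.0802, and S1pr4 at 0. There the neighbours that overlapped were Sgpl1 with S1pr1, Sgpp1 with S1pr2, S1pr2 with Sphk2, and S1pr3 with S1pr4. S1pr4 stood above Sphk1 with curcumol and below it without curcumol.

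**Figure D3:**
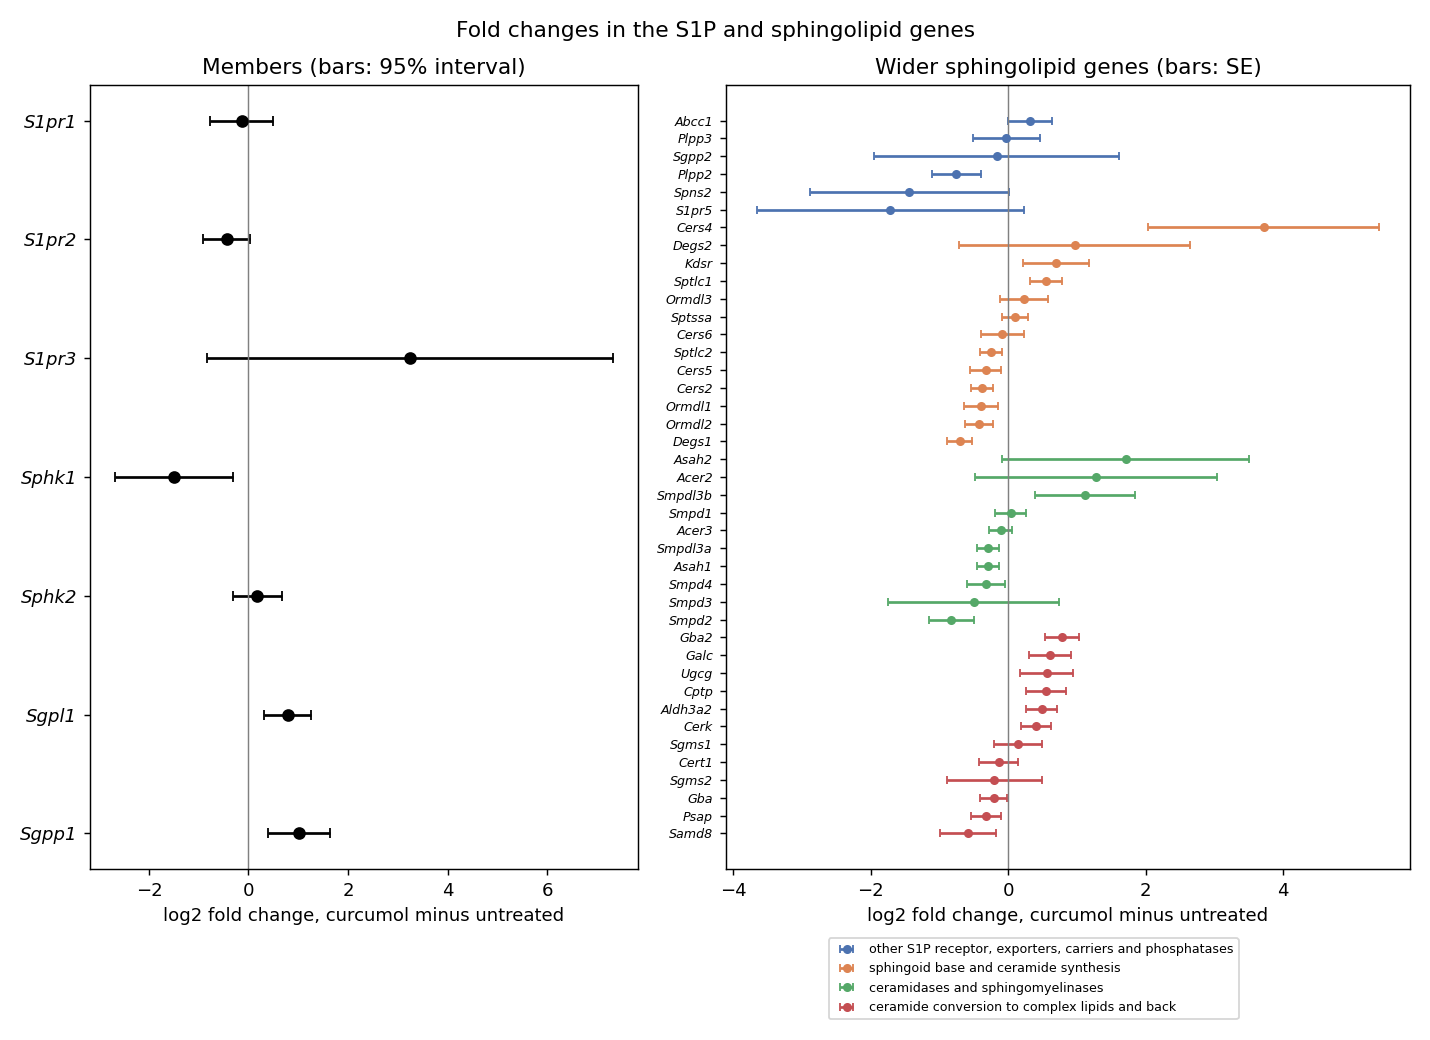
Log2 fold changes, curcumol minus untreated, of the 7 tested receptors and enzymes (left, bars are 95% intervals) and of wider sphingolipid genes grouped by role (right, bars are SE). S1pr4, Plpp1 and Mfsd2b, without counts in the untreated libraries, are not drawn. S1pr3 is drawn but not read, since it passed the filter only through its curcumol libraries. The intervals of Sgpl1 and Sgpp1 lie above 0 and that of Sphk1 below 0, while the wider genes fall on both sides.

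The rest of the sphingolipid pathway was followed in a list of 50 genes, of which 44 were in the table and 43 were tested. None passed in edgeR's quasi-likelihood test, 5 had an unadjusted p under 0.05, beside 24.6% of all tested genes, and DESeq2 called 5 of 44, beside 12.9% of all genes it tested. Plpp1 and Mfsd2b, without untreated counts, are among the 5 of unadjusted p under 0.05. The median log2 fold change was -0.09, with 20 positive and 23 negative, beside a median of 0.15 over all tested genes. Groups were fully separated for 9 higher and 11 lower genes of the list, beside 29.5% higher and 14.9% lower over all tested genes. Plpp1 and Mfsd2b, tested only through their curcumol libraries, are also among the 20 positive and the 9 higher genes.

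Among exporters, carriers, phosphatases and the remaining receptor, Plpp1, a cell-surface lipid phosphatase that also acts on S1P, was absent without curcumol. It stood at 6.98, 6.29 and 5.73 normalised CPM with curcumol, against 0 and 0. This is at least 82.9-fold higher against the floor of 3 counts per untreated library, a bound that covers counting error only. Of other genes averaging 2.77 to 6.24 with curcumol, just below Plpp1, 8.10% had no count in either untreated library. Of those at 6.58 to 14.8, just above it, 1.12% had none. Plpp2, of the same family, had 18.4 ± 0.663 normalised CPM with curcumol and 31.0 ± 15.9 without it (SD, n = 3 and 2; adjusted p = 0.256). Mfsd2b, the S1P exporter of red cells and platelets, had 0.563 ± 0.335 normalised CPM with curcumol and no count without it. Both entered the test only through the curcumol libraries, so no p is given for them. S1pr5, the receptor of natural killer cells and oligodendrocytes, had 0.526, 2.41 and 0.540 normalised CPM with curcumol, against 0 and 7.60, so its groups overlapped. The endothelial exporter Spns2, at 0.287, 0.363 and 0.705 against 2.41 and 0.0512, overlapped too.

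In sphingoid base and ceramide synthesis 6 of 13 tested genes had positive and 7 negative fold changes. Degs1, the desaturase that makes ceramide, stood at 215 ± 35.5 normalised CPM with curcumol and 350 ± 25.96 without it (log2 fold change -0.70 ± 0.18, adjusted p = 0.0784). Sptlc1, a subunit of the serine palmitoyltransferase that starts the pathway, stood at 40.3 ± 6.11 and 27.4 ± 2.79 normalised CPM (0.56 ± 0.23, adjusted p = 0.206), and the ceramide synthase Cers2 at 349 ± 45.5 and 455 ± 10.4 (-0.38 ± 0.16, adjusted p = 0.219). These went both ways.

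Ceramidases and sphingomyelinases, which release sphingosine and ceramide, were listed together with the sphingomyelinase-like genes Smpdl3a and Smpdl3b. These listed genes had 4 positive and 6 negative fold changes among 10 tested. Their smallest p-values belonged to the neutral sphingomyelinase Smpd2, at 30.2 ± 6.38 normalised CPM with curcumol and 53.3 ± 22.0 without it (adjusted p = 0.183), the acid ceramidase Asah1, at 638 ± 74.5 and 785 ± 1.95 (adjusted p = 0.316), and Smpdl3a, at 412 ± 32.3 and 505 ± 56.9 (adjusted p = 0.317). Among 12 tested genes that convert ceramide to complex lipids and back, 7 were positive. The glucosylceramidase Gba2 stood at 32.5 ± 4.62 and 18.9 ± 0.973 normalised CPM (0.78 ± 0.25, adjusted p = 0.109), the galactosylceramidase Galc at 24.9 ± 4.17 and 16.4 ± 4.03 (adjusted p = 0.285), and Aldh3a2, the aldehyde dehydrogenase that handles the product of the lyase, at 69.6 ± 10.52 and 49.7 ± 11.03 (adjusted p = 0.257). In each of these pairs the curcumol mean is first.

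Receptor signalling genes were followed in a list of 15 symbols, of which 14 were in the table and 13 were tested. One of them passed, lower with curcumol, where 0.138% of all tested genes did. Cd69, whose protein binds S1pr1 and takes it off the surface of activated lymphocytes, stood at 22.0, 20.3 and 18.7 normalised CPM with curcumol, against 68.4 and 68.0 in the untreated libraries. It fell by 1.74 on the log2 scale (-1.74 ± 0.19, adjusted p = 0.0464, lower in 3 of 3 curcumol libraries). The call ended with total counts (adjusted p = 0.0560), with a replicate block (0.178), and without curcumol replicate 1, 2 or 3 (0.0954, 0.104 and 0.106), with log2 fold changes between -1.80 and -1.56. Klf2, a transcription factor that drives S1pr1 in T cells, stood at 244, 139 and 127 normalised CPM with curcumol, against 349 and 361 (-1.07 ± 0.30, adjusted p = 0.0846), and Arrb1, an arrestin of receptor desensitisation, at 27.8, 29.7 and 30.7 against 6.13 and 21.6 (adjusted p = 0.263).

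Of 6 tested G protein alpha subunits 4 had positive fold changes. Gna11, of the Gq class, stood at 17.9, 22.4 and 17.0 normalised CPM with curcumol, against 5.85 and 3.33 (2.05 ± 0.42, adjusted p = 0.0659). Gnaq, of the same class, stood at 15.6, 32.7 and 31.1 against 11.7 and 13.1 (1.09 ± 0.39, adjusted p = 0.150). The G12/13 subunit Gna13 overlapped between the groups (-0.14 ± 0.20, adjusted p = 0.733).

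Because S1pr4 is known from several blood cell types, markers of other cells were read in the same libraries. Weakly expressed markers at 0 in both untreated libraries stand beside a wider lack of such genes there. Of 1197 other genes within 1.5 times of the S1pr3 mean with curcumol (1.73), 22.3% had no count in either untreated library. Of 1420 within 1.5 times of the Sphk1 mean (4.16), 8.10% had none. The 12 neutrophil markers summed to between 1742 and 3926 normalised CPM with curcumol and to 489 and 621 in the untreated libraries, with 11 of 12 higher without overlap, beside 29.5% of all tested genes, S100a8 at 1149 ± 489 with curcumol and 171 ± 43.7 without it, and Camp and Ly6g at 0 in both untreated libraries. The 8 B cell markers summed to between 68.9 and 106 with curcumol and to 36.5 and 58.6 without it, with Pax5, Blk and Cr2 at 0 in both untreated libraries. The 11 T and NK cell markers in the table, at 77.4 to 154 with curcumol against 74.3 and 109, overlapped. Of these, 2 were higher without overlap, Cd2 and Ncr1, beside 29.5% of all tested genes. Ncr1 was at 0 in both untreated libraries and low with curcumol, at 0.794 ± 0.890. Il7r, the one of highest mean, averaged 28.0 ± 13.1 with curcumol and 40.2 ± 4.52 without it and overlapped. Zap70 also had a lower mean with curcumol, at 4.90 ± 2.88 against 5.52 ± 2.79. The 8 dendritic cell markers, at 53.0 to 89.7 against 51.8 and 83.0, overlapped as a sum. Of these, 4 were higher without overlap, beside 29.5% of all tested genes. Among them Siglech, at 4.11 ± 0.670 with curcumol, and Clec9a, at 0.743 ± 0.241, were at 0 in both untreated libraries. The other 4 overlapped, of which Xcr1, Ccr7 and Zbtb46 had lower means with curcumol.

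Markers of the vessel wall and stroma, where S1pr1 and S1pr3 are common, were read in the same way. The 9 endothelial markers summed to between 29.7 and 48.7 normalised CPM with curcumol and to 3.84 and 3.88 without it. Of these, 8 were higher without overlap, beside 29.5% of all tested genes, and Emcn overlapped. Pecam1 averaged 9.93 ± 4.63 with curcumol and 0.560 ± 0.0323 without it. At 0 in both untreated libraries were 6 of the 9, among them Cdh5, at 1.17 ± 0.312 with curcumol, and Egfl7, at 6.43 ± 1.95. The 8 fibroblast markers summed to between 132 and 330 with curcumol and to 30.5 and 36.8 without it. Of these, 5 were higher without overlap, beside 29.5% of all tested genes. Col1a2, Postn and Tcf21 overlapped, the last at 0.770 ± 0.512 with curcumol and 0.793 ± 1.12 without it. Dcn, the one of highest mean, averaged 67.4 ± 15.5 and 13.0 ± 1.10. Lum, at 11.1 ± 3.15 with curcumol, and Pdgfra, at 1.17 ± 0.958, were at 0 in both untreated libraries. The 8 mural markers, at 20.5 to 35.5 against 15.2 and 34.3, overlapped. Of these 8, 3 were higher without overlap, beside 29.5% of all tested genes. They were Rgs5, Pdgfrb and Kcnj8, all at 0 in both untreated libraries, while Myh11, Tagln and Notch3 were at or near 0 in both groups. Acta2, the mural marker of highest mean, averaged 14.1 ± 6.21 with curcumol and 21.1 ± 8.38 without it, and Cspg4 0.964 ± 0.167 and 3.61 ± 5.11. The 7 cardiomyocyte markers were at 79.1 to 96.2 against 19.3 and 52.9, with 5 higher without overlap, beside 29.5% of all tested genes. Actc1, the one of highest mean, averaged 26.3 ± 4.54 with curcumol and 17.0 ± 13.6 without it and overlapped, as did Nppa. Ryr2, at 0 in both untreated libraries, was near the floor with curcumol too, at 0.0782 ± 0.0373. The 9 erythroid and platelet markers, at 909 to 1210 against 1062 and 1143, overlapped as a sum, most of which was Pf4, at 1010 ± 147 and 999 ± 7.92. The globins Hbb-bs, at 5.42 ± 3.43 and 16.1 ± 6.66, Hba-a1 and Hba-a2 were lower with curcumol without overlap. Alas2 and Gp1ba were at 0 in both untreated libraries and low with curcumol, at 0.544 ± 0.436 and 0.454 ± 0.177. The 6 mast cell, basophil and eosinophil markers, at 13.1 to 18.1 against 7.27 and 17.9, overlapped. Across the curcumol libraries S1pr4 and the fibroblast, cardiomyocyte, mural and mast cell list sums were highest in replicate 3 and lowest in replicate 1. The macrophage sum ran the other way, at 43212, 39232 and 37567 in replicates 1, 2 and 3. The neutrophil, B cell and erythroid and platelet sums were also highest in replicate 1, and the T and NK, dendritic and endothelial sums were highest in replicate 2. The part of these cells in the levels of S1pr4, S1pr3, S1pr1 or Cd69 was not tested.

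**Figure D4:**
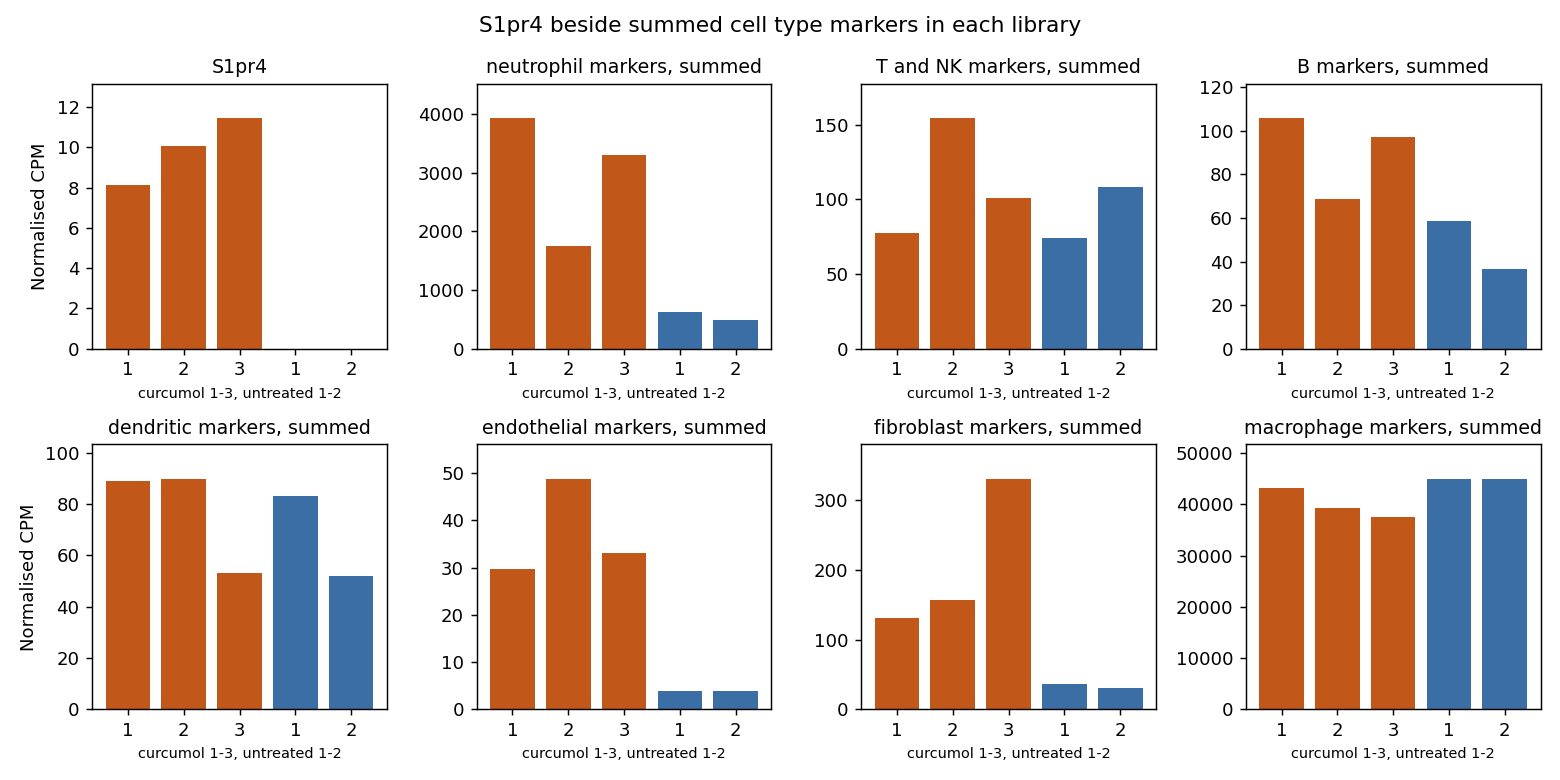
Normalised CPM of S1pr4 and summed normalised CPM of markers of 7 cell types in each library, with curcumol replicates 1 to 3 (orange) left of untreated replicates 1 and 2 (blue). Neutrophil, B cell, endothelial and fibroblast sums are higher in each curcumol library than in either untreated one. T and NK and dendritic cell sums overlap, and the macrophage sum is lower in each curcumol library. From curcumol replicate 1 to 3, S1pr4 and the fibroblast sum rise and the macrophage sum falls, while the neutrophil and B cell sums run in another order.

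The profile of S1pr4 over the 5 libraries was closest to those of Myl3, Lum, Usp20, Mks1 and Morc2a, with root mean square differences of 0.16, 0.17, 0.17, 0.18 and 0.20 in log2(CPM + 1). Myl3, a myosin light chain of heart muscle, stood at 9.37, 8.47 and 10.03 normalised CPM with curcumol, against 0.101 and 0. Lum, a matrix proteoglycan of fibroblasts, stood at 9.13, 9.54 and 14.8 against 0 and 0. For Sgpl1, the most abundant of the 8 genes, the closest profiles were those of Arhgap45, Fcgr4, Nrp1, Nckap1l and Flna, with differences of 0.14, 0.18, 0.20, 0.25 and 0.26. Likeness was measured over the same 5 libraries that show the difference, so it describes the profiles only.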

How the data were processed

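Gene-level read counts of bulk RNA sequencing were analysed for 3 curcumol and 2 untreated samples of sorted cardiac macrophages. What the authors deposited is a table of raw counts. The submitters' processing notes name fastp, HISAT2, HTSeq and Bowtie2, while versions, genome build and annotation were not given in the sources used here. The library kit is named in one way in the labels' protocols and in another in the series' design text, so strandedness is not settled, and reads of overlapping or near-identical genes may be split. Columns were tied to samples by title, and every pair of libraries differed by more than sampling noise (chi-square per gene of 92.1 to 350).

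Differential expression was tested with edgeR (version 4.0.16, run in R 4.3.3), using TMM scaling, filterByExpr with a minimum count of 10, a quasi-likelihood fit on group alone, two-sided tests, Benjamini-Hochberg adjustment over 14508 genes and 0.05 as the threshold. SEs are the log2 fold change divided by the root of its F value, and the common biological coefficient of variation was 0.610. The code was tested on simulated data. No permutation test was run, since 5 samples allow too few regroupings. The genes described, the wider lists and the marker lists were chosen with earlier results of these data known. Genes named from the wider lists are those past the threshold, the 3 smallest p-values of each list, and S1pr5 and Spns2, added after their values were seen; the 2 markers of highest mean per list were eligible, of which the ones in the text are examples, and the genes of the sorted antigens and further markers were named after their values were seen. For Usp20, Mks1, Morc2a, Arhgap45, Fcgr4, Nrp1, Nckap1l and Flna only the likeness is given. Alternatives were DESeq2 1.42.0, RLE factors, total counts, no filter, limma-voom (limma 3.58.1), a filter keeping genes that reach 1 CPM in 2 samples, a replicate block and leaving out each sample.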

Additional observations from a re-analysis of the deposited data

How the results depend on the processing

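The count of genes past the threshold over the whole table was 30 and depended on the setting: 98 with a CPM of at least 1 in 2 samples, 10 with total counts, 416 without a filter, 1661 with limma-voom, 2653 with DESeq2, and between 0 and 3531 when 1 sample was left out. The 0 came without curcumol replicate 2, where 2383 genes had an unadjusted p under 0.05. Of the 7 tested receptors and enzymes 3 passed with DESeq2 (Sphk1 -1.50, Sgpl1 0.78, Sgpp1 1.01), beside 12.9% of all genes it tested. When 1 curcumol sample was left out, 0 passed. Fits without an untreated sample leave a single untreated library and are not counted here for these 7 genes. For the wider list, the background was 98 of 12212 genes with a CPM of at least 1 and 416 of 20537 unfiltered. It was 1661 of 14508 with limma-voom and 2653 of 20536 with DESeq2, and 39 to 44 list genes were tested. Plpp1 and Mfsd2b, without untreated counts, were not set aside from that list. The highest count of the list, like that of all genes, came without untreated replicate 2, which leaves a single untreated library. Of the wider sphingolipid genes 1 passed with a CPM of at least 1, 1 without a filter, 2 with limma-voom, 5 with DESeq2, and 0 to 8 when 1 sample was left out.

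Leaving out 1 sample gave log2 fold changes of -0.38 to 0.031 for S1pr1, -0.67 to -0.14 for S1pr2, -1.75 to -1.37 for Sphk1, -0.021 (without untreated replicate 1) to 0.44 for Sphk2, 0.62 to 0.88 for Sgpl1 and 0.89 to 1.22 for Sgpp1. For S1pr3 they were 2.26 to 9.19, the last without untreated replicate 2, where the remaining untreated library has no count and the fitted value is no bound. The sign of S1pr1 turned with total counts (0.049), with the replicate block (0.013) and without curcumol replicate 3 (0.026) or untreated replicate 1. Total counts moved the median log2 fold change of all tested genes to 0.34, against 0.15. The mean of S1pr4 with curcumol was 8.93 to 10.7 normalised CPM over the samples left out. S1pr2, Sphk1, Sgpl1 and Sgpp1 kept their sign in each of 12 alternatives, which the libraries not overlapping largely fixes in advance.

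The replicate number as a block gave 45 genes past the threshold and 0 of the receptors and enzymes. The labels share numbers between groups without naming a litter, batch or day. Across genes, the difference between replicates 1 and 2 in the curcumol group correlated at 0.02 with that in the untreated group. This value leaves out curcumol replicate 3 and cannot show whether samples of the same number share more than the number. Cd69, followed after it passed, had adjusted p between 9.57e-18 and 0.178 over its alternatives. The cause of these changes was not tested, except that fits without an untreated sample hold 1 untreated library. Counts of under 20 per library limit S1pr3 without curcumol.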
